A study of Mus musculus with 200 samples.

Results

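The Smad2 knockout epiblast was described from 6 RNA-seq libraries, 3 of Smad2 knockout embryos and 3 of control embryos, out of 148 libraries in the perturbation screen table and 200 in the whole series. The members were taken by their labels: all 6 are libraries of batch 9, labelled epiblast (the pluripotent tissue that forms the embryo proper) at embryonic day 5.0. Knockout embryos are labelled as carrying complete disruption of Smad2 made with C-CRISPR, which cuts a gene at several sites at once in the zygote. Control embryos are labelled wild type. Per the labels, embryos were grown through the implantation period in a three-dimensional culture, about 10 to 100 cells per sample were lysed, and their cDNA was amplified for 17 cycles by Smart-seq2. The labels give 3 biological replicates per group, do not say which embryos or how many went into each, and name no mouse strain. The 12 libraries of the other 4 knockouts of batch 9 (Ovol2, Sox4, Wt1 and Zfp281, 3 each, same stage and culture) served as a second point of comparison.

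SMAD2 is a transcription factor that carries the Nodal and activin signal. Nodal binds type I and type II activin receptors together with the co-receptor encoded by Tdgf1 (Cripto), the receptors phosphorylate SMAD2 and SMAD3, and these enter the nucleus with SMAD4 and partners such as FOXH1. Direct targets include Lefty1, Lefty2 and Nodal itself, so the pathway holds both its own amplifier and its own inhibitors. The related BMP signal runs through SMAD1 and SMAD5 and switches on the Id genes. At the implantation stage the extraembryonic ectoderm, which derives from the trophectoderm and lies against the epiblast, makes BMP4, and mouse embryos without Smad2 are known to fail in axis formation and germ layer patterning.

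Values are TPM (transcript abundance scaled by transcript length and by the total of the library). Replicates were alike: the correlation of log2 levels across genes was between 0.980 and 0.986 within the control and the Smad2 knockout group, and between 0.963 and 0.973 for pairs of a knockout and a control library. The 6 libraries held between 10873 and 11306 genes at 1 TPM or more. The libraries carried markers of epiblast and of trophoblast. All 8 epiblast markers were present, among them Utf1 (759 to 992 TPM), Tdgf1 (230 to 374 TPM), Pou5f1 (57.6 to 103 TPM) and Fgf5 (42.8 to 81.4 TPM), although Sox2 reached only 3.14 to 6.95 TPM. Trophectoderm and extraembryonic ectoderm markers were also abundant: 23 of 26 reached 1 TPM in at least 3 of the 6 libraries, and Krt18 alone stood at 1100 to 1913 TPM. The sum over the 8 epiblast markers was 1312 to 1492 TPM in controls and 1699 to 1840 TPM in knockouts. The sum over the 26 trophectoderm and extraembryonic ectoderm markers was 3736 to 3838 TPM in controls and 3191 to 3420 TPM in knockouts, and without Prl3d1 it was 3723 to 3832 TPM and 2592 to 2841 TPM. Both sums separated the groups without overlap. Utf1 was the largest part of the epiblast sum. Krt18, with means of 1744 TPM in controls and 1171 TPM in knockouts, was a large part of the other. In such bulk samples fewer cells of a type and less RNA per cell cannot be told apart. Of the primitive and visceral endoderm markers 21 of 30 reached 1 TPM in at least 3 libraries, with sums of 817 to 877 TPM in controls and 900 to 933 TPM in knockouts, most of it Apoe, while Gata6, Pdgfra and Hnf4a averaged below 1 TPM in both groups. Markers of blood, endothelium and stroma summed to at most 24.2 TPM, and 8 of the 21 in the table, including Ptprc and Hbb-bs, were listed at 0 in all 6 libraries.

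**Figure D1:**
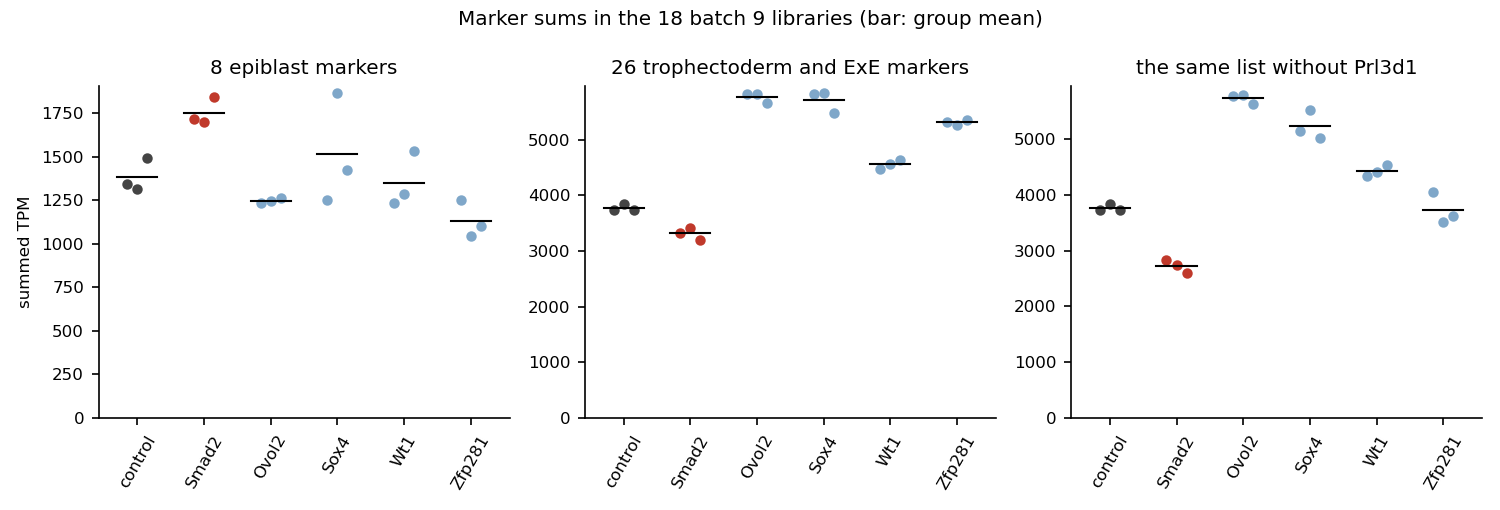
Summed TPM of 3 marker sets in the 18 libraries of batch 9, 3 points per group with the group mean as a bar. Each axis starts at 0 (ExE, extraembryonic ectoderm). The 3 Smad2 knockout libraries sit between 1699 and 1840 TPM for epiblast markers, above the 3 controls, and between 2592 and 2841 TPM for trophectoderm and extraembryonic ectoderm markers without Prl3d1, below every other library.

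Smad2 (mm10, chromosome 18, 76241580 to 76310963, plus strand) was read at 17.9, 16.1 and 17.4 TPM in the controls and at 12.5, 14.1 and 13.7 TPM in the knockouts. All 3 knockout libraries were below all 3 controls, and the log2 change of -0.33 ± 0.30 (SE) did not pass the test (adjusted p = 0.951, and 0.136 with batch 9 libraries alone). The other 4 knockouts of batch 9 had mean Smad2 levels of 15.8 to 17.9 TPM. Cuts that disrupt a reading frame need not lower the transcript level, so the TPM of the gene does not check the label.

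Genes were compared with limma on log2(TPM + 1), with the spread estimated over all 10 batches of the screen, and p-values were adjusted by the Benjamini-Hochberg method over the 11307 genes that reached 1 TPM in at least 3 of the 6 libraries. A gene was called at an adjusted p under 0.05. In the knockout 115 genes rose (1.02% of those tested) and 140 fell (1.24%), together 2.26%. Called or not, 4894 of the 11307 genes had a change above zero and 6413 below, with a median of -0.06. With libraries scaled by the median of ratios the split of called genes was 116 higher and 89 lower, and that median was 0.02. Libraries of batch 9 were less variable than most: the median residual SD over genes was 0.27 on the log2 scale in batch 9 and from 0.242 to 0.788 over the 10 batches. With the spread taken from the 18 libraries of batch 9 alone, 603 genes passed as higher and 864 as lower (5.33% and 7.64%, together 13%), and 241 of the 255 genes called in the screen-wide fit were among them. The 3 knockout and the 3 control values did not overlap for 254 of the 255 called genes, against 32.1% of all genes tested. Calls and overlap come from the same 6 libraries, so the overlap is no separate support for the calls. A change of at least 2-fold on this scale was met by 53 of the genes that rose and 65 of those that fell (0.469% and 0.575% of genes tested, together 1.04%). Fewer genes passed with 1 library left out: 167, 145 or 154 without knockout replicate 1, 2 or 3, and 167, 205 or 128 without control replicate 1, 2 or 3. Among the called genes named below, a pseudocount of 0.1 in place of 1 ended the calls of Aadac, Anxa2, Apela, Apoa1, B3gnt3, Bmp8b, Cd300a, Cyp26a1, Dkk1, Dlx5, Elf5, Eomes, Gabarapl1, Hand1, Id1, Inpp1, Ndrg1, Pga5, Phlda1, Psg29, Rhox9, Serpinb8, Sox11, Sp8, Spink1 and Wnt7b. Scaling by the median of ratios ended those of Bmp8b, Cyp26a1, Dkk1, Eomes, Fgfr2, Fxyd2, Gabarapl1, Hand1, Hspa8, Id2, Phlda1, Rps18, S100a10, Serpinb8 and Tpm1. None of them changed sign. The error after a mean is the SD of 3 libraries, and after a log2 change it is the SE of the fit. "Rose" and "fell" refer to the screen-wide fit, and the adjusted p from batch 9 alone is given where it changes the call.

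**Figure D2:**
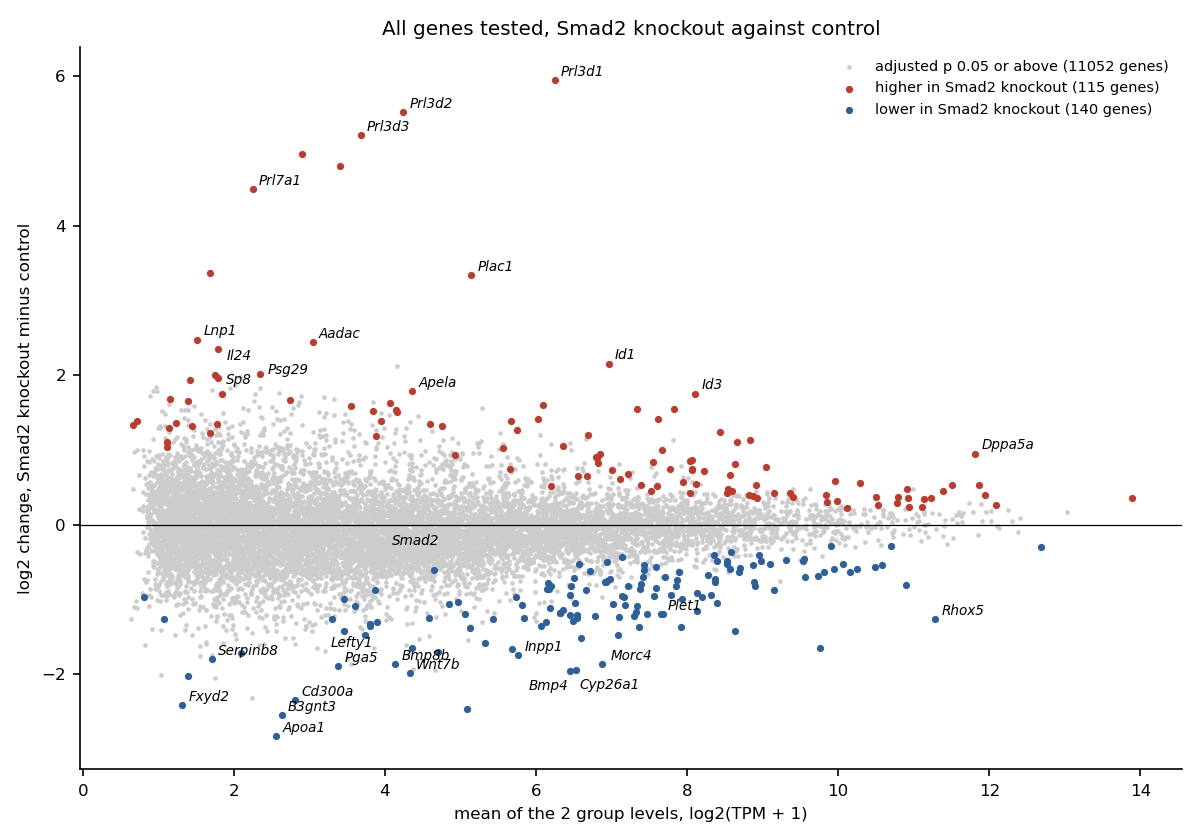
Each point is 1 of the 11307 genes tested, with the mean of the group levels on the x axis and the log2 change, Smad2 knockout minus control, on the y axis, both on the log2(TPM + 1) scale. Red points (115 genes) rose and blue points (140 genes) fell at an adjusted p under 0.05, and Prl3d1, Prl3d2 and Prl3d3 lie highest among the named genes, at changes from 5.21 to 5.95.

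None of the 9 tested members of the list of Nodal ligands, co-receptors, receptors and convertases (18 genes listed) passed the screen-wide test, and their median log2 change was -0.01, beside -0.06 over all genes tested. Only 1.02% of all genes rose and 1.24% fell, so no call among 9 genes is near that share. Within batch 9, 2 of the 9 passed as higher and 1 as lower, against 5.33% and 7.64% of all genes. Nodal, the ligand, was at 6.56, 12.7 and 13.2 TPM in controls and 20.5, 12.3 and 17.7 TPM in knockouts, and the groups overlapped (adjusted p = 0.952). Tdgf1 was at 230, 238 and 245 TPM in controls and 335, 374 and 333 TPM in knockouts, a log2 change of 0.54 ± 0.23. All knockout libraries lay above all controls, and the adjusted p was 0.359 in the screen-wide fit and 0.00371 within batch 9. Gdf3, which encodes a ligand that works with Nodal, was at 21.1 to 22 TPM in controls and 36.9 to 41 TPM in knockouts (adjusted p = 0.526, within batch 9 0.00298). Pcsk6, a convertase that cleaves the Nodal precursor, was at 8.84, 10.5 and 9.15 TPM in controls and 5.07, 3.71 and 3.22 TPM in knockouts, with a log2 change of -1.08 ± 0.41 (adjusted p = 0.23, within batch 9 0.00103). The receptor genes Acvr1b, Acvr2a, Acvr2b and Tgfbr1 were all low, with group means from 0.782 to 3.74 TPM, and their groups overlapped.

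Among the SMAD proteins and their nuclear partners 1 of 13 tested genes fell and none rose, against 1.24% and 1.02% of all genes. That gene was Eomes, which encodes a T-box factor needed in both extraembryonic ectoderm and the primitive streak. Eomes read 41.4, 38.6 and 50.8 TPM in controls and 18.1, 24 and 20.3 TPM in knockouts, a log2 change of -1.03 ± 0.31 (adjusted p = 0.0464). The groups were far apart, yet leaving out any 1 of the 6 libraries in turn brought the adjusted p above the threshold, to at most 0.309. Smad3, the closest relative of Smad2, was at 6.03, 6.26 and 6.35 TPM in controls and 2.62, 3.04 and 3.95 TPM in knockouts and did not pass in either fit (adjusted p = 0.876, within batch 9 0.0944). The common partner Smad4 had means of 4.71 ± 0.81 and 4.66 ± 0.57 TPM. Foxh1, which encodes the DNA-binding partner of SMAD2 in the epiblast, was at 24.3, 18.9 and 33.6 TPM in controls and 60.1, 52.4 and 54.1 TPM in knockouts (log2 change 1.12 ± 0.41, adjusted p = 0.183, within batch 9 0.0108). Smad7, an inhibitory SMAD, had means of 28.93 ± 2.84 and 19.11 ± 1.51 TPM, and Smad6, an inhibitor of the BMP branch, of 4.31 ± 0.88 and 1.44 ± 0.27 TPM. Both lay lower in every knockout library and passed only within batch 9 (adjusted p = 0.0124 for Smad7 and 0.0073 for Smad6).

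No member of the list of Nodal inhibitors passed the screen-wide test out of 16 tested, with a median log2 change of 0.04, and 4 passed as lower within batch 9: Lefty1, Lefty2, Smad7 and Tgif2. Over all genes 1.02% rose and 1.24% fell in the screen-wide fit, and 7.64% passed as lower within batch 9. Lefty1 (chromosome 1, 180935022 to 180938400) encodes a secreted antagonist of Nodal that is also its direct target. It read 14.1, 16.4 and 15.6 TPM in controls and 3.38, 5.76 and 3.4 TPM in knockouts. Every knockout library was below every control, the log2 change was -1.69 ± 0.61, and the adjusted p was 0.176 in the screen-wide fit and 0.000335 within batch 9. Lefty2, its neighbour and paralog (180893108 to 180899103), was near the lower end of detection at 4.02, 2.23 and 4.3 TPM in controls and 0.524, 0.172 and 1.25 TPM in knockouts, with the same side of zero (log2 change -1.47 ± 0.68, adjusted p = 0.44, within batch 9 0.00268). The transcriptional repressors Skil (means 106 and 141 TPM) and Tgif1 (127 and 151 TPM) did not pass in either fit.

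Of 25 listed Nodal and SMAD2 target genes 16 were tested, 8 with a change above zero and 8 below, and Eomes alone was called. Within batch 9 the genes that passed as lower were Eomes, Lefty1, Lefty2, Smad7 and Ier3, and those that passed as higher were Tdgf1, Fgf5 and Wnt3. Over all genes 7.64% passed as lower and 5.33% as higher within batch 9, and 1.24% fell and 1.02% rose in the screen-wide fit. Ier3, an immediate early gene, was at 27.6, 32 and 34.6 TPM in controls and 9.28, 13.4 and 13.6 TPM in knockouts. Of 18 mesendoderm and primitive streak genes 11 were too low to be tested, T, Gsc, Foxa2, Fgf8 and Lhx1 among them, which averaged below 1 TPM. Of the 7 tested, with a median of 0.27, Eomes fell and none rose, and Mixl1, a streak homeobox gene, averaged 3.6 and 4.29 TPM.

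**Figure D3:**
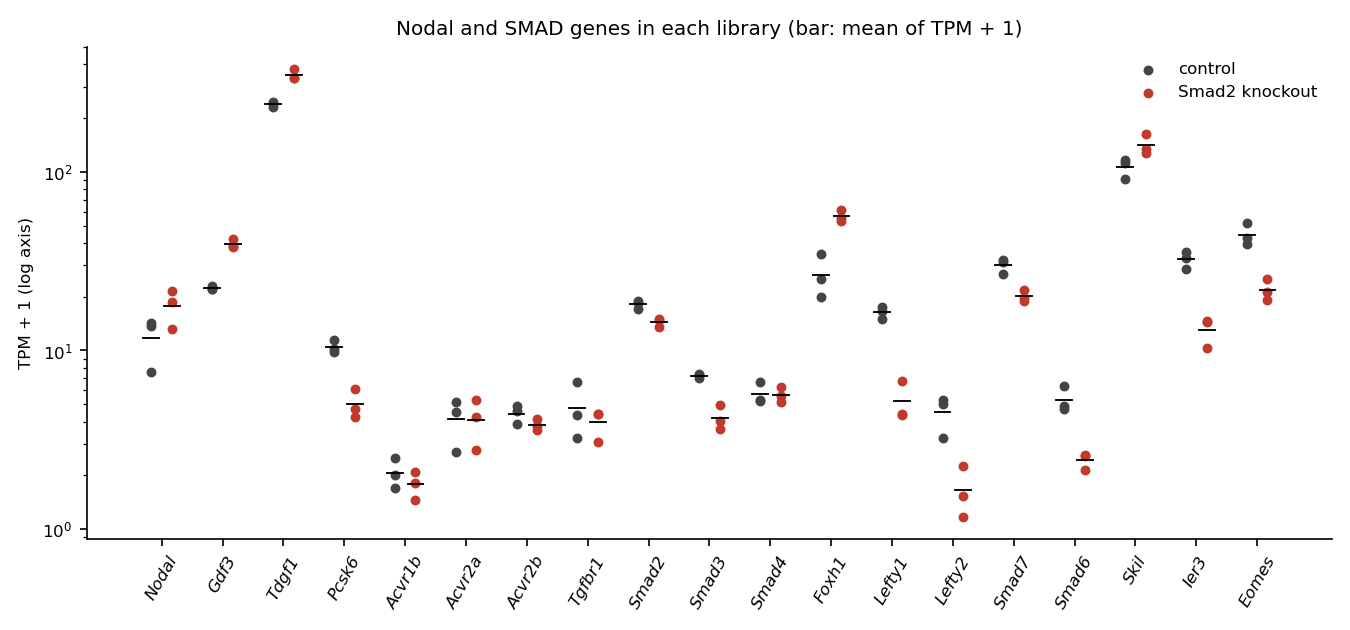
Levels of 19 Nodal and SMAD genes in the 3 control libraries (dark) and the 3 Smad2 knockout libraries (red), as TPM + 1 on a log axis, with the mean as a bar. Smad2, Smad3, Eomes, Lefty1, Lefty2, Pcsk6, Smad6, Smad7 and Ier3 are lower in every knockout library than in every control. Gdf3, Tdgf1, Foxh1 and Skil are higher in every one. Of the genes shown Eomes alone was called in the screen-wide fit.

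The BMP pathway and Id genes split into members that rose and members that fell: of 14 tested, Id1 and Id3 rose and Bmp4, Bmp8b and Id2 fell (1.02% and 1.24% over all genes), with a list median of -0.16. Id proteins bind basic helix-loop-helix factors and keep them off DNA. Id1 (chromosome 2, 152736251 to 152737410) read 60.1, 54.2 and 59.8 TPM in controls and 254, 237 and 298 TPM in knockouts, a log2 change of 2.15 ± 0.48 (adjusted p = 0.00222). Id3 (chromosome 4, 136143497 to 136145755) read 154, 145 and 148 TPM in controls and 522, 475 and 518 TPM in knockouts, a log2 change of 1.75 ± 0.29 (adjusted p = 1.16e-05). In both genes every knockout library was far above every control. The Id1 call was lost with a pseudocount of 0.1 (adjusted p = 0.155) and kept in the other alternatives without a fold minimum, and the Id3 call was kept in all of those. Id2, by far the most abundant of the family, went the other way, from 1342, 1191 and 1320 TPM to 957, 854 and 855 TPM (log2 change -0.53 ± 0.13, adjusted p = 0.00533, and 0.0853 with median-of-ratios scaling). Id4 averaged below 1 TPM.

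Bmp4 (chromosome 14, 46383520 to 46390669, minus strand), the BMP ligand of the extraembryonic ectoderm, fell from 176, 154 and 182 TPM to 48.4, 44.1 and 37.5 TPM, a log2 change of -1.96 ± 0.36 (adjusted p = 7.7e-05). Bmp8b, another ligand made there, fell from 30.6, 24.6 and 43.6 TPM to 8.25, 6.93 and 9.09 TPM (log2 change -1.87 ± 0.54, adjusted p = 0.0415), and this call was lost with any 1 library left out (adjusted p at most 0.296). The receptor genes Bmpr1a, Bmpr2 and Acvr1 and the transducers Smad1 and Smad5 had overlapping groups and did not pass in either fit. Msx1, a homeobox gene known as a BMP target, was at 5.28, 4.97 and 6.59 TPM in controls and 15.2, 16.7 and 20.6 TPM in knockouts (adjusted p = 0.263, within batch 9 0.0016). Bmp4 is also on the list of trophectoderm and extraembryonic ectoderm markers, whose sum without Prl3d1 was lower in all 3 knockout libraries (2592 to 2841 against 3723 to 3832 TPM). The part of that sum in the Bmp4 and Bmp8b values was not tested.

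The largest changes in the table were rises of placental lactogen genes. Prl3d1, Prl3d2 and Prl3d3 are prolactin-family hormone genes made by trophoblast giant cells and lie in a row on chromosome 13 (27094190 to 27100258, 27121698 to 27127555 and 27156790 to 27162593, plus strand). Their upstream windows, the 250 bases before the transcription start in RefSeq (GRCm38.p6, the assembly also called mm10), are shown because they are near copies of each other. The window of Id3, a gene of the BMP group that rose, is shown beside them. Windows of other genes of that group are not shown. Capitals mark the letters CAGAC, a short motif that SMAD proteins bind, and TGACTCA, the AP-1 motif, each searched on both strands. The windows are chr13:27093939-27094188, chr13:27121445-27121694, chr13:27156544-27156793 and chr4:136143572-136143821, all on the plus strand. The Id3 window lies inside the Id3 gene as positioned above from GENCODE, since the RefSeq start is further downstream.
Prl3d1: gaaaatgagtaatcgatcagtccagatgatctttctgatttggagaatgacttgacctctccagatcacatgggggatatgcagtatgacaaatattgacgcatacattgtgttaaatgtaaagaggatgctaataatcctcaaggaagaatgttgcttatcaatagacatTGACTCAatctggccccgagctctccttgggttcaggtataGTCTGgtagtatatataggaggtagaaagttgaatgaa
Prl3d2: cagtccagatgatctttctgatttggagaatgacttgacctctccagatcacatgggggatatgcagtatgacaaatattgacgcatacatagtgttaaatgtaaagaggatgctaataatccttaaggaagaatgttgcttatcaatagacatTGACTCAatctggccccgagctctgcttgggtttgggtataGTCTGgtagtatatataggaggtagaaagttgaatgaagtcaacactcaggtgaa
Prl3d3: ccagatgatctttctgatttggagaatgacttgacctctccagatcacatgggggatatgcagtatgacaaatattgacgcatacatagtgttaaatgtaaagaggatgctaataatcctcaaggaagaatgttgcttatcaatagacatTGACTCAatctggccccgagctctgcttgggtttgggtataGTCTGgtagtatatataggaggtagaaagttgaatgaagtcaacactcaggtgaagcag
Id3: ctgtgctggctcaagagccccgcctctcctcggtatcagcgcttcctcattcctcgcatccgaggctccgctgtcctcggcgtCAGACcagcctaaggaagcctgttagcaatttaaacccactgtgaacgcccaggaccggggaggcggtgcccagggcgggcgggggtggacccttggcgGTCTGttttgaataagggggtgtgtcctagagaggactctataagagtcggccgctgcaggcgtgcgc

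In all 3 Prl3d windows a near-identical stretch holds 1 match of each motif, at a position that shifts with the annotated start. Between the motifs a few bases of Prl3d1 differ from those of Prl3d2 and Prl3d3. TGACTCA begins at positions -79, -96 and -100 from the start, and GTCTG, the reverse strand of CAGAC, at -38, -55 and -59. The Id3 window holds CAGAC at -167 and GTCTG at -68 and no AP-1 match. Of 32851 promoter windows of this length 42.2% hold CAGAC on either strand and 4.46% hold TGACTCA, so the first match is common. Aligned bases of the Prl3d windows were 97.9% to 99.6% identical, and their transcripts were 98.4% to 98.5% identical, with unbroken identical runs of 142 to 321 bases. How reads were divided among the 3 genes is therefore uncertain.

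Prl3d1 read 12.3, 6.07 and 7.98 TPM in controls and 486, 680 and 599 TPM in knockouts, a log2 change of 5.95 ± 0.69 (adjusted p = 5.1e-11). Prl3d2 went from 1.31, 1.93 and 2.16 TPM to 111, 140 and 129 TPM (log2 change 5.51 ± 0.50, adjusted p = 6.09e-16). Prl3d3 went from 1.44, 0.375 and 1.63 TPM to 67.2, 81 and 78.6 TPM (log2 change 5.21 ± 0.44, adjusted p = 7.74e-18). The groups were separated by a wide margin in each gene, and all 3 calls held in every alternative run. Prl7a1, another prolactin-family gene of trophoblast, was listed at 0 in the 3 controls and at 19.12, 25 and 20.8 TPM in knockouts (adjusted p = 3.99e-13). Plac1, a placental membrane protein gene, rose from 9.98, 11.7 and 8.42 TPM to 136, 113 and 86.1 TPM (log2 change 3.34 ± 0.24, adjusted p = 2.22e-21). The controls of batch 9 were low for this gene: in the 26 control libraries of the other batches Plac1 ranged from 0 to 640 TPM with a median of 103 TPM. For Prl3d1 the same 26 libraries ranged from 0 to 5930 TPM with a median of 10.0 TPM. Psg29, which encodes a pregnancy-specific glycoprotein, rose from 2.05, 1.74 and 0.813 TPM to 7.09, 8.71 and 11.6 TPM (adjusted p = 0.0012, and 0.106 with a pseudocount of 0.1).

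The trophectoderm and extraembryonic ectoderm markers held more falls than rises. Of 23 tested trophectoderm and extraembryonic ectoderm markers 3 rose (Prl3d1, Plac1 and Rhox9) and 8 fell, against 1.02% and 1.24% of all genes, 12 were not called, and the median log2 change was -0.64. The 8 were Bmp4, Elf5, Fgfr2, Hand1, Krt7, Krt18, Plet1 and Wnt7b. Without knockout replicate 2 or without control replicate 3 the count of called members was 6, 4 of them lower. Plet1, a surface protein gene of extraembryonic ectoderm, fell from 307, 288 and 318 TPM to 139, 139 and 121 TPM (log2 change -1.19 ± 0.16, adjusted p = 3.93e-08). Elf5, a factor that keeps trophoblast stem cells in their state, fell from 121, 107 and 135 TPM to 52, 53.8 and 56.6 TPM (log2 change -1.14 ± 0.23, adjusted p = 0.000671). Fgfr2, the receptor through which FGF4 of the epiblast reaches the trophoblast, fell from 21.3, 18.8 and 26.4 TPM to 10.4, 9.6 and 5.69 TPM (adjusted p = 0.0238). Krt7 fell from a mean of 96 to 52.9 TPM, a call lost without knockout replicate 2 or control replicate 3 (adjusted p at most 0.177), and Hand1 from 120 to 62 TPM, lost without knockout replicate 1 or 2 or control replicate 2 or 3 (at most 0.527). The Fgfr2 call was lost without knockout replicate 2 or 3 or control replicate 1 or 3 (adjusted p at most 0.284). Wnt7b, a WNT ligand gene, fell from 31, 22.8 and 68.1 TPM to 9.75, 5.98 and 10.3 TPM (adjusted p = 0.0121, and at most 0.285 without knockout replicate 2 or control replicate 3). Among the keratins of simple epithelia Krt18 fell (1736, 1913 and 1585 to 1181, 1230 and 1100 TPM, log2 change -0.57 ± 0.10, adjusted p = 7.04e-05), while its partner Krt8 did not pass (means 723 ± 29 and 623 ± 33 TPM, adjusted p = 0.726). Gata3 and Tead4, transcription factors of the trophectoderm, passed as lower only within batch 9 (adjusted p = 0.00181 and 0.000271), and Cdx2, another of them, averaged 3.6 TPM in controls and 2.17 TPM in knockouts with overlapping groups. The summed level of the whole list was lower in all 3 knockout libraries, as given above, and its part in the value of any 1 gene was not tested.

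Rhox5, an X-linked homeobox gene expressed strongly in extraembryonic tissue, was among the most abundant transcripts to fall, from 3867, 4112 and 3587 TPM to 1744, 1603 and 1484 TPM (log2 change -1.26 ± 0.11, adjusted p = 9.53e-17). Rhox9 of the same cluster rose from 41.3, 33.5 and 39.6 TPM to 121, 127 and 105 TPM (log2 change 1.60 ± 0.42, adjusted p = 0.0159), a call lost without knockout replicate 1 or 2 or control replicate 2 or 3 (adjusted p at most 0.0917). Rhox6 had means of 127 and 164 TPM and did not pass. Gsto1, a glutathione transferase gene, fell from 1483, 1515 and 1620 TPM to 466, 490 and 509 TPM, with no overlap (adjusted p = 3.13e-22). Of 11 tested germline and 2-cell stage genes 9 lay above zero, with a median of 0.58, beside 4894 of all 11307 genes. Within batch 9, 4 passed as higher and 2 as lower, against 5.33% and 7.64% of all genes. Called in the screen-wide fit were Rhox5 and Tex19.1, both lower, against 1.24% of all genes. Tex19.1, which restrains retrotransposons, fell from 607, 621 and 668 TPM to 369, 337 and 366 TPM (adjusted p = 0.000956).

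Core and formative pluripotency genes lay mostly above zero. None of the 14 core pluripotency genes was called in the screen-wide fit, 11 had a positive change, and the median was 0.46. Within batch 9, 5 passed as higher and none as lower, against 5.33% and 7.64% of all genes. Pou5f1, which encodes OCT4, was at 57.6, 63.6 and 75.6 TPM in controls and 91.9, 77.9 and 103 TPM in knockouts, without overlap and without passing (adjusted p = 0.914, within batch 9 0.194). Lin28a, an RNA-binding regulator of let-7, was at 24.6, 27.7 and 41.3 TPM and 48.8, 69.5 and 71.5 TPM (adjusted p = 0.132, within batch 9 0.00117). Sall4 was at 141 to 154 TPM and 213 to 283 TPM (adjusted p = 0.131, within batch 9 0.0181). Of 16 tested formative and primed genes 2 rose, none fell, and 14 lay above zero, with a median of 0.47. Over all genes 1.02% rose, 1.24% fell, and 4894 of 11307 lay above zero, with a median of -0.06. Dnmt3a, a de novo DNA methyltransferase gene, rose from 30.1, 29.7 and 36.6 TPM to 63.2, 66.3 and 69.7 TPM (log2 change 1.03 ± 0.20, adjusted p = 0.00039). Sox11, a SoxC transcription factor gene, rose from 7.65, 8.15 and 9.91 TPM to 22.5, 27.3 and 22 TPM (log2 change 1.38 ± 0.33, adjusted p = 0.00436, and 0.146 with a pseudocount of 0.1). Otx2, Fgf5 and Dnmt3b, which mark the formative epiblast, did not pass the screen-wide test, and Fgf5 alone of the 3 passed within batch 9 (adjusted p = 0.0156). These lists share members with the 8 epiblast markers, whose sum was higher in all 3 knockout libraries (1699 to 1840 against 1312 to 1492 TPM), and the part of that sum in these values was not tested.

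Naive pluripotency genes were divided: of 15 tested, 1 rose and 1 fell, against 1.02% and 1.24% of all genes. Dppa5a, an abundant RNA-binding protein gene of early pluripotent cells, rose from 2631, 3066 and 2110 TPM to 4904, 4999 and 5029 TPM (log2 change 0.95 ± 0.11, adjusted p = 9.1e-12). Zfp42, which encodes REX1 and is expressed in both naive epiblast and trophoblast, fell from 231, 226 and 212 TPM to 115, 139 and 114 TPM (log2 change -0.86 ± 0.18, adjusted p = 0.000942). The other 13 tested members were not called, 6 above zero and 7 below, among them Esrrb, also a trophoblast stem cell factor, with means of 6.29 ± 1.29 and 1.82 ± 0.68 TPM (adjusted p = 0.231, within batch 9 0.00119). Nanog was low, at 2.39 to 5.77 TPM and 3.87 to 9.61 TPM, with overlapping groups.

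The called endoderm markers went both ways. Of 21 tested, Apoa1 and Sparc fell and Spink1 and Dkk1 rose, against 1.24% and 1.02% of all genes. The list had 15 members above zero and 6 below, with a median of 0.32, beside 4894 and 6413 of all 11307 genes. Within batch 9, 6 passed as higher and 4 as lower, against 5.33% and 7.64% of all genes. Apoa1, an apolipoprotein gene of visceral endoderm, had the largest fall of the genes named by rule, from 14.7, 14.7 and 14.3 TPM to 0.8, 1.05 and 1.85 TPM (log2 change -2.83 ± 0.59, adjusted p = 0.00081, and 0.0879 with a pseudocount of 0.1). Sparc, a matrix protein gene, fell from 144, 140 and 191 TPM to 95.2, 83.2 and 101 TPM (adjusted p = 0.000158). Spink1, a trypsin inhibitor gene, rose from 8.21, 9.08 and 8.75 TPM to 16.8, 24 and 23.1 TPM (adjusted p = 0.0438), and lost its call with any 1 library left out (at most 0.244). Dkk1, a secreted WNT antagonist gene that is also a WNT target, rose from under 0.4 TPM to 2.85, 1.8 and 4.42 TPM (adjusted p = 0.0423), and lost its call with any 1 control left out (at most 0.194). All 7 tested WNT pathway targets lay above zero with a median of 0.89, and Dkk1 alone was called. Within batch 9, 5 of the 7 passed, among them the cyclin genes Ccnd1 (22.1 ± 2.4 and 41.7 ± 0.7 TPM) and Ccnd2 (0.99 ± 0.23 and 3.88 ± 1.10 TPM).

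The actin, keratin and galectin list held the most falls of the 32 lists. Of its 24 genes 10 fell and none rose, against 1.24% and 1.02% of all genes, with a median of -0.29. Within batch 9, 9 passed as lower and 5 as higher (Anxa1, Cnn1, Myl9, Pfn1 and Tagln), against 7.64% and 5.33% of all genes. Against the other knockouts of the batch 13 were lower and 4 higher, beside 2.97% and 3.28% of all genes tested there. Krt18 is also a trophectoderm marker, and the trophectoderm and extraembryonic ectoderm sum without Prl3d1 was lower in all 3 knockout libraries (2592 to 2841 against 3723 to 3832 TPM), whose part in these values was not tested. Leaving out control replicate 3 left 6 called members. Anxa3, an annexin gene, fell from 98.8, 81.5 and 89.1 TPM to 34.6, 24.6 and 24.3 TPM (log2 change -1.67 ± 0.29, adjusted p = 3.29e-05). S100a6, a calcium-binding protein gene, fell from 109, 116 and 101 TPM to 43.3, 37.1 and 50.5 TPM (log2 change -1.30 ± 0.19, adjusted p = 2.22e-07). Tagln2, an actin-bundling protein gene, fell from 406, 393 and 493 TPM to 258, 237 and 256 TPM (adjusted p = 0.000432). The other members that fell were Krt18, Anxa2, S100a10, S100a11, Tpm1, Tpm4 and Actg1, with log2 changes from -0.94 to -0.37. Without control replicate 3 the adjusted p was 0.0669 for Actg1 and 0.0504 for S100a11. Tpm4 lost its call without knockout replicate 3 or control replicate 3 (at most 0.0704), and Tpm1 without any 1 library other than control replicate 2 (at most 0.249). Actg1 did not pass within batch 9 (adjusted p = 0.0908). Actb, the other cytoplasmic actin gene, had means of 7849 ± 194 and 8830 ± 940 TPM and did not pass. Of the epithelial genes Cdh1, which encodes E-cadherin, fell from 66.3, 48.3 and 112 TPM to 36.5, 33.2 and 37.7 TPM (adjusted p = 0.00268) and Cldn7, a claudin gene, from 185, 168 and 248 TPM to 112, 81.9 and 110 TPM (adjusted p = 0.00119). Control replicate 3 was the highest library for both, and without it the adjusted p was 0.285 for Cdh1 and 0.0534 for Cldn7.

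**Figure D4:**
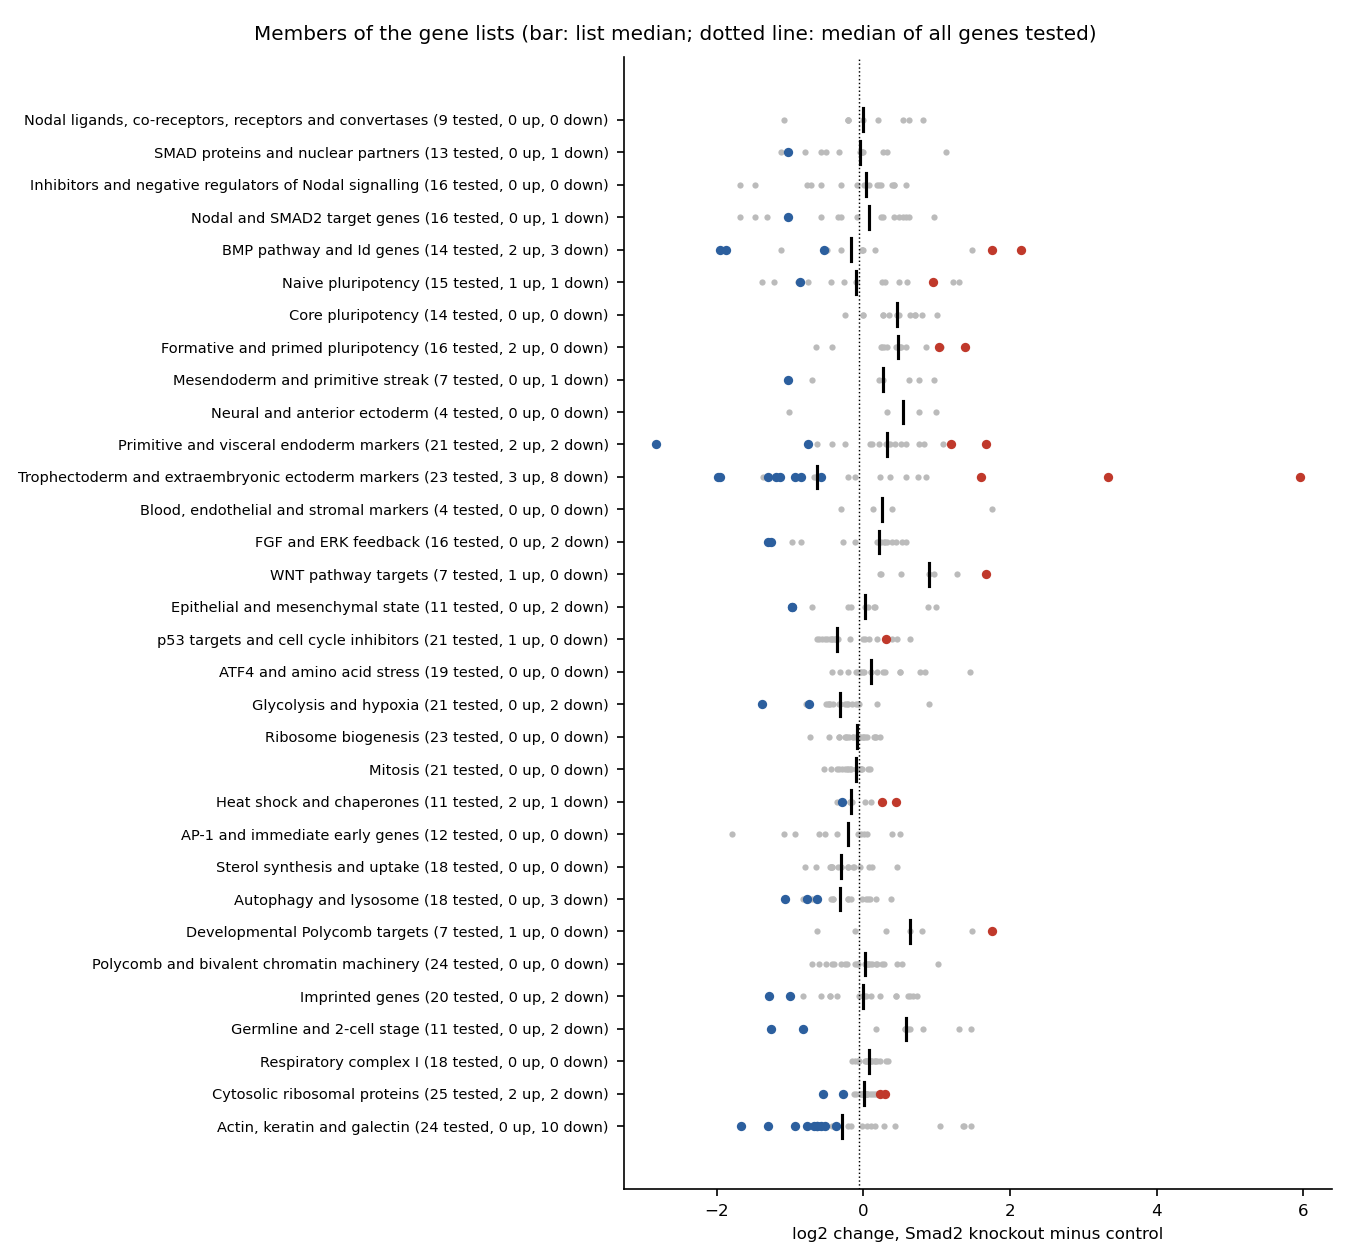
Log2 change, Smad2 knockout minus control, of each tested member of the 32 gene lists, 1 point per gene. Red points rose, blue points fell, grey points were not called, the bar is the list median and the dotted line is the median of all genes tested (-0.06). The trophectoderm and extraembryonic ectoderm list spans the widest range, from Wnt7b at -1.98 to Prl3d1 at 5.95, and the actin, keratin and galectin list holds 10 blue points and no red one.

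Of 16 tested FGF and ERK feedback genes Fgfr2 and Phlda1 fell and none rose. For comparison with the lists of this paragraph, 1.24% of all genes fell, 1.02% rose, and 6413 of 11307 lay below zero. Phlda1, an immediate early gene, went from 12.7, 11.5 and 18.7 TPM to 5.69, 3.98 and 6.35 TPM (adjusted p = 0.0309), and lost its call in 5 of the 6 fits that left out 1 library, all but that without control replicate 2 (at most 0.309). Dusp6, a phosphatase gene that reads out ERK activity, was at 101 to 150 TPM and 55.4 to 64.9 TPM (adjusted p = 0.0767, within batch 9 0.00116). In the autophagy and lysosome list 3 of 18 fell: Ctsl, a lysosomal protease gene (157 ± 13 to 92.3 ± 10.0 TPM, adjusted p = 1.57e-05), Gabarapl2 (294 ± 21 to 189 ± 21 TPM, adjusted p = 0.000603) and Gabarapl1 (80.3 ± 9.4 to 37.6 ± 2.9 TPM, adjusted p = 0.0315), the last 2 encoding autophagosome proteins. The Gabarapl1 call was lost in every fit that left out 1 library except that without control replicate 2 (at most 0.192). Of 20 imprinted genes H19 fell from 324, 315 and 393 TPM to 171, 176 and 166 TPM (adjusted p = 2.1e-05) and Slc38a4, an amino acid transporter gene of placenta, from 137, 124 and 159 TPM to 59.1, 57 and 52.8 TPM (log2 change -1.29 ± 0.26, adjusted p = 0.000384). Of the glycolysis and hypoxia genes Slc2a1, the glucose transporter gene, fell from 273, 247 and 387 TPM to 190, 172 and 170 TPM (adjusted p = 0.0134) and Ndrg1 from 48.1, 47.3 and 68.6 TPM to 22.4, 13.6 and 26.4 TPM (adjusted p = 0.021), and 19 of the 21 tested lay below zero. Both calls were lost without knockout replicate 2 or control replicate 3, and that of Slc2a1 also without knockout replicate 3 (adjusted p at most 0.363 and 0.295).

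No gene passed the screen-wide test in the lists of ribosome biogenesis (23 tested), mitosis (21), sterol synthesis (18), respiratory complex I (18), ATF4 and amino acid stress (19), AP-1 and immediate early genes (12), Polycomb machinery (24) and neural ectoderm (4). Within batch 9, where 5.33% of all genes passed as higher and 7.64% as lower, 4 mitosis genes passed as lower and 3 ATF4 and amino acid stress genes as higher and 1 as lower. In the ribosome biogenesis, complex I and Polycomb machinery lists 1 gene each passed as higher there, and 1 neural gene as lower. Of the 21 mitosis genes 19 lay below zero, beside 6413 of all 11307. Their median of -0.09 was near the -0.06 of all genes. Within batch 9, 4 AP-1 genes also passed as lower, Fosl1 (15.2, 22.4 and 22.8 against 4.48, 6.12 and 4.59 TPM) and Fos (39.4, 40.8 and 55.8 against 29.2, 22.8 and 18.4 TPM) among them, and 4 sterol synthesis genes, Stard4 and Msmo1 among them. Of 25 cytosolic ribosomal protein genes 2 rose and 2 fell. For comparison with every list of this paragraph, 1.02% of all genes rose and 1.24% fell in the screen-wide fit. Rps18 fell from a mean of 1843 to 1259 TPM while Rps18-ps4, annotated as a pseudogene copy of it, rose from 119 to 320 TPM, so the division of reads between them is uncertain. Of 11 heat shock genes Hspb1 and Hspe1 rose and Hspa8 fell, by at most 0.44 on the log2 scale, and each lost its call in at least 5 of the 6 fits that left out 1 library (adjusted p at most 0.2). Of 21 p53 target and cell cycle inhibitor genes 14 lay below zero, with a median of -0.35, and 5 passed as lower and 1 as higher within batch 9. The 1 called in the screen-wide fit was Bax, which rose from 842, 853 and 794 TPM to 1031, 999.8 and 1039 TPM (adjusted p = 0.041), lost with any 1 library left out (at most 0.274). Of 7 tested Polycomb target genes Dlx5, a homeobox gene, rose from 1.01, 1.27 and 0.626 TPM to 4.95, 6.3 and 5.52 TPM (adjusted p = 0.00965), lost without knockout replicate 2 or control replicate 3 (at most 0.0956).

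The remaining genes with the largest rises and falls were of mixed function. Besides those above, Lnp1 (at most 0.664 TPM in controls, 4.54 to 6.7 TPM in knockouts), Il24, a cytokine gene (at most 1.87 and 4.06 to 7.9 TPM), Sp8, a zinc finger factor gene (0.521 to 1.19 and 4.98 to 7.3 TPM), and Apela, the gene of a peptide ligand of the apelin receptor (9.94 to 10.2 and 35.1 to 40.5 TPM), rose. Aadac, a deacetylase gene, rose from 2.74, 2.03 and 2.89 TPM to 17.2, 18.1 and 19.15 TPM (adjusted p = 0.0327). Aadac lost its call with any 1 library left out (at most 0.128), and Apela without knockout replicate 1 or control replicate 3 (at most 0.057). The falls included Cyp26a1, the gene of an enzyme that breaks down retinoic acid, from 190, 181 and 169 TPM to 46.6, 47.5 and 43.6 TPM (log2 change -1.95 ± 0.57, adjusted p = 0.0416, within batch 9 2.88e-11). Its values hardly varied within a group, and the screen-wide call was lost with any 1 library left out (at most 0.156). Morc4, a gene of a nuclear ATPase family, fell from 200, 194 and 280 TPM to 57.6, 62.2 and 61 TPM (log2 change -1.86 ± 0.27, adjusted p = 2.35e-07). Inpp1, an inositol phosphatase gene, fell from 112, 73.1 and 111 TPM to 34.8, 27.3 and 23.7 TPM (adjusted p = 0.0153), lost without knockout replicate 2 or 3 or control replicate 1 or 3 (at most 0.115). B3gnt3, Cd300a, Pga5 and Serpinb8 fell from control means of 13.6, 14, 18.2 and 5.03 TPM to 1.64, 2.29, 4.62 and 0.765 TPM. B3gnt3 lost its call without knockout replicate 1 or control replicate 3 (adjusted p at most 0.104) and Cd300a without knockout replicate 3 or control replicate 3 (at most 0.181). Pga5 lost its call without knockout replicate 2 (0.0604) and Serpinb8 without knockout replicate 2 or control replicate 3 (at most 0.11). Fxyd2 was at 2.26, 10.1 and 3.17 TPM in controls and listed at 0 in all 3 knockouts (adjusted p = 0.0461), lost with any 1 knockout library left out (at most 0.157).

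A comparison that uses no control library sets the 3 Smad2 knockout libraries against the mean of the Ovol2, Sox4, Wt1 and Zfp281 knockouts of the same batch. Of 12260 genes tested 402 were higher in the Smad2 knockout (3.28%) and 364 lower (2.97%), together 6.25%. At least 2-fold differences were met by 186 and 170 of them (1.52% and 1.39%, together 2.9%). The counts were 428, 365 and 393 without knockout replicate 1, 2 or 3, and 1406 higher and 1560 lower (11.5% and 12.7%) with batch 9 libraries alone. Both contrasts contain the same 3 Smad2 knockout libraries, and 209 of the 255 genes called against control were called in the same direction here.

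Id3 and Id1 had the largest rises of this contrast among genes at 5 TPM or more whose groups did not overlap. Id3 averaged 505 ± 26 TPM in the Smad2 knockout and 65.7, 73.3, 163 and 52.2 TPM in the Ovol2, Sox4, Wt1 and Zfp281 knockouts (log2 difference 2.65 ± 0.23, adjusted p = 7.65e-17). Id1 averaged 263 ± 31 TPM against 32, 29.7, 67.1 and 46 TPM (log2 difference 2.64 ± 0.38, adjusted p = 6.64e-08). The controls of the batch, not used in this contrast, averaged 149 TPM for Id3 and 58.1 TPM for Id1. For both genes the Ovol2, Sox4 and Zfp281 means were below these control means and the Wt1 mean was above. Next came Car14, a carbonic anhydrase gene (35.6 against 0.586 to 15.2 TPM), Aadac (18.2 against 0.99 to 4.18 TPM), Pdpn, a membrane glycoprotein gene (82.5 against 5.41 to 25.3 TPM), and Bmerb1 (23.3 against 0.358 to 7.95 TPM), as group means. The largest falls under the same rule were Pga5, a pepsinogen gene (4.62 against 20.4 to 135 TPM), Cd300a, Tnnt3, Aqp8, Wnt7b and B3gnt3, with log2 differences from -3.15 to -2.01. Cd300a lost its call without knockout replicate 3 (adjusted p = 0.0642), Aqp8 without replicate 2 (0.264) and B3gnt3 without replicate 1 (0.1).

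Elf5, Bmp4, Eomes and Rhox5 had their lowest group means of the batch in the Smad2 knockout. Elf5 averaged 54.1 ± 2.3 TPM in the Smad2 knockout and 152, 277, 268 and 140 TPM in the Ovol2, Sox4, Wt1 and Zfp281 knockouts (log2 difference -1.86 ± 0.18, adjusted p = 3.04e-14). Bmp4 averaged 43.3 ± 5.5 TPM against 181, 200, 166 and 109 TPM (-1.87 ± 0.28, adjusted p = 2.87e-07), and Eomes 20.8 ± 3.0 TPM against 53.4, 69.4, 49.2 and 45.3 TPM (-1.32 ± 0.24, adjusted p = 3.16e-05). Rhox5 averaged 1610 ± 130 TPM against 3538 to 3744 TPM (-1.17 ± 0.09, adjusted p = 8.87e-21). Of 24 tested trophectoderm and extraembryonic ectoderm markers 15 were lower and 2 higher, with a median of -1.12, beside -0.04 over all genes tested. Their sum without Prl3d1 was 2592 to 2841 TPM in the Smad2 knockout and 3513 to 5794 TPM in the 12 other libraries, and its part in these values was not tested. Of 14 core pluripotency genes 6 were higher and none lower, with a median of 0.49, and of 19 formative and primed genes 7 were higher and none lower, with a median of 0.58. Over all genes tested in this contrast 3.28% were higher and 2.97% lower. Sox11 averaged 24 ± 2.9 TPM against 4.04 to 8.28 TPM (1.84 ± 0.26, adjusted p = 2.95e-08).

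Placental lactogen levels of the Smad2 knockout lay inside the range spanned by the other knockouts. Prl3d1 averaged 589 ± 97 TPM in the Smad2 knockout and 31.3 ± 5.3, 483 ± 184, 130 ± 27 and 1583 ± 277 TPM in the Ovol2, Sox4, Wt1 and Zfp281 knockouts, and the controls of the batch, at 8.77 ± 3.17 TPM, were below all of them. In order of level Prl3d1 ran from control through Ovol2, Wt1, Sox4 and Smad2 to Zfp281, and the Sox4 and Smad2 libraries overlapped. Prl3d3 had the same 2 highest groups without overlap: 67.2 to 81 TPM in the Smad2 knockout, 148 to 197 TPM in the Zfp281 knockout and at most 61.2 TPM in the other 3. The log2 difference of the Smad2 knockout from the mean of the 4 was 1.32 ± 0.54 (adjusted p = 0.157, within batch 9 7.73e-05). Plac1 averaged 112 ± 25 TPM in the Smad2 knockout and 89.1 to 183 TPM in the others (-0.17 ± 0.19, adjusted p = 0.808). Lefty1 averaged 4.18 ± 1.37 TPM in the Smad2 knockout, 4.08 ± 0.64 TPM in the Zfp281 knockout and 8.89, 13.9 and 31 TPM in the Ovol2, Wt1 and Sox4 knockouts (-1.26 ± 0.48, adjusted p = 0.115, within batch 9 0.00025).

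**Figure D5:**
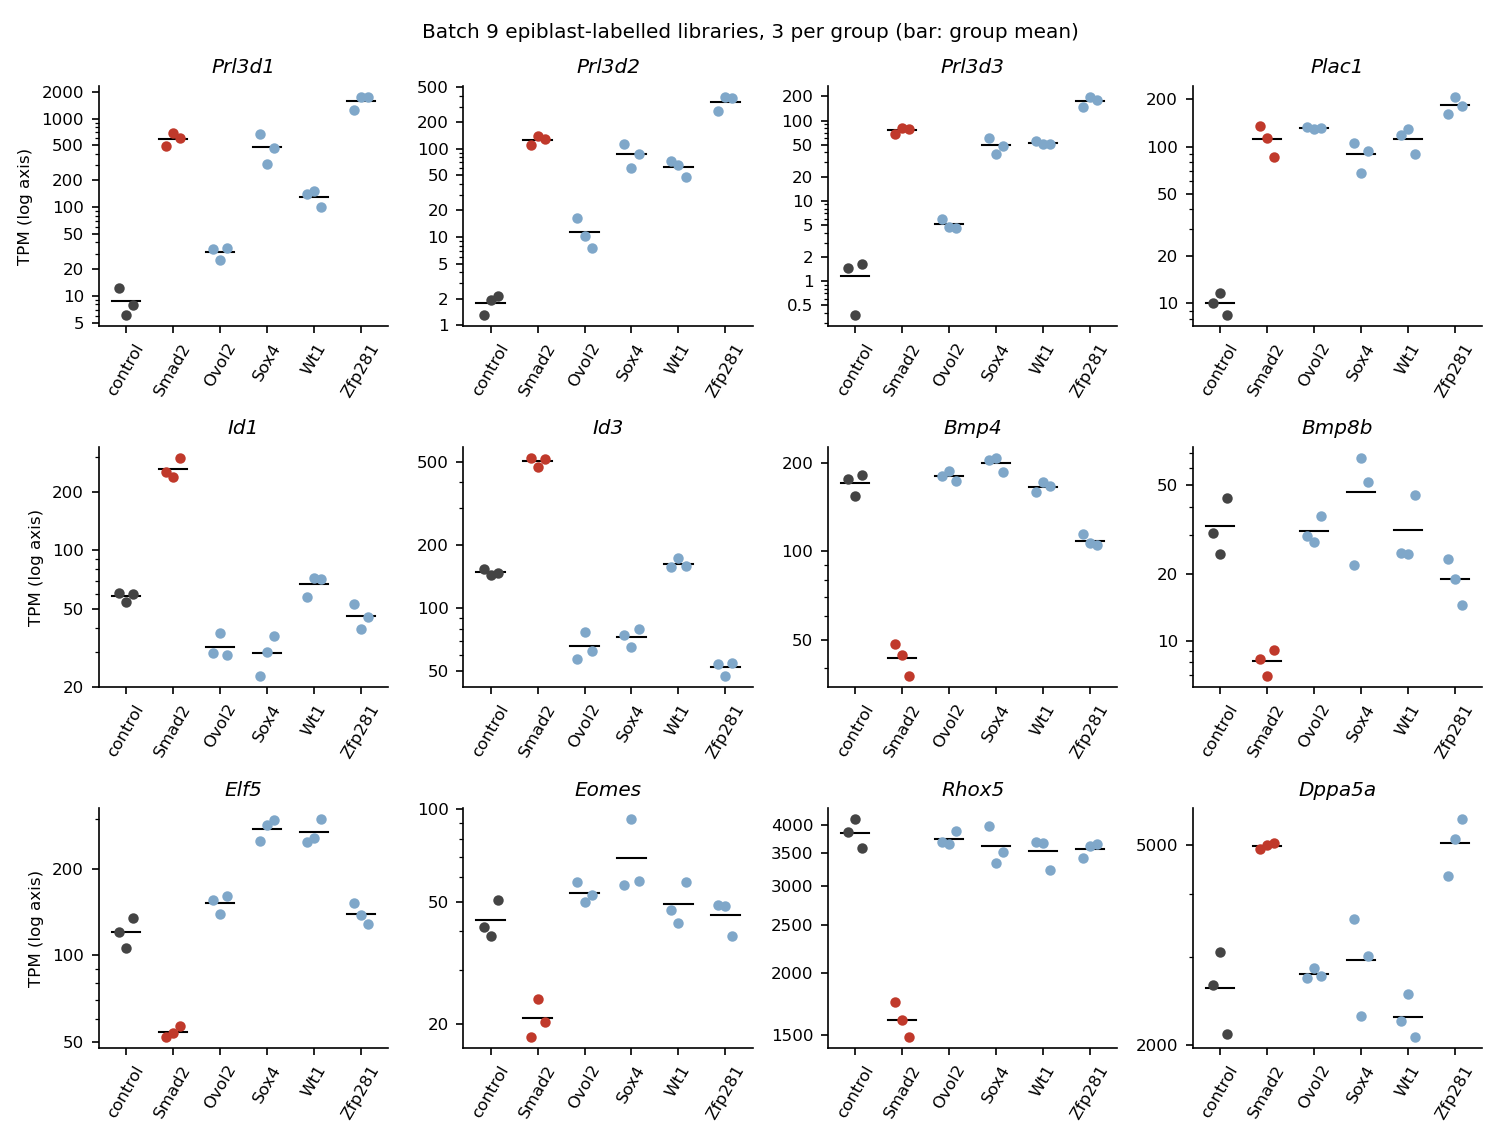
TPM of 12 genes in the 18 libraries of batch 9 on a log axis, 3 points per group with the mean as a bar, Smad2 knockout in red and control in dark. Id1 and Id3 are highest and Bmp4, Bmp8b, Elf5, Eomes and Rhox5 lowest in the Smad2 knockout, while Prl3d1 to Prl3d3 and Plac1 are lowest in the controls and the Smad2 knockout lies among the other knockouts.

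Among 39 knockout groups of the screen (all but Aurkb, whose 3 libraries were near identical), each taken as its mean log2 level minus that of the controls of its own batch, the Smad2 knockout had the highest change of Id1 (2.15, with a median of -0.17 over the groups) and rank 2 for Id3 (1.75, range -2.27 to 3.18). Its changes had rank 4 from the lowest for Bmp8b, Eomes, Lefty2 and Gsto1, rank 5 for Elf5, rank 7 for Lefty1 and Rhox5 and rank 8 for Bmp4 (-1.96, range -4.35 to 0.74). It had rank 9 from the highest for Prl3d1, Prl3d2 and Prl3d3, where the median group was also above its controls (2.59, 2.2 and 1.55). These ranks describe single groups with at most 3 libraries each and were not tested. The batch 8 libraries among them have titles with a later embryonic day than the 5.0 listed as their stage.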

How the data were processed

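Gene expression was read from a table of TPM values that the authors deposited for the perturbation screen, 1 column per library. The submitters' processing notes name the mouse build mm10 and 3 tools, StringTie 2.2.1, HISAT2 2.2.1 and Cufflinks, whose role and order are not given in the sources used here. The files hold no read counts, so the depth of each library is unknown, and no interval that needs it is given. TPM summed to 989752 to 991205 in the batch 9 libraries.

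Values were set to log2(TPM + 1) and fitted with limma 3.58.1 (R 4.3.3), with a trended variance and 1 coefficient per batch and genotype, over 148 libraries, of which 3 near-identical ones were averaged, leaving 146. Fold changes are on this scale, which understates the change of low genes. A gene was tested (2-sided) where 3 or more of the libraries compared reached 1 TPM, with Benjamini-Hochberg adjustment and a threshold of 0.05. The SE is limma's moderated error. With 3 against 3 libraries an exact permutation test of a single gene cannot go below p = 0.1, so none was used. Replicates are labelled biological, and nothing gives the embryos behind them, so p-values measure the spread between samples. In the screen-wide fit that is the spread between replicates pooled over 50 groups in 10 batches. Within batch 9 it is the spread between replicates of its 18 libraries. The fit was first run on simulated data with 1 spread per gene shared by all batches. That run could not show the effect of unequal spread between batches. Promoter windows were read from RefSeq (GRCm38.p6) by symbol, and gene positions from GENCODE vM21, in which 11077 of the 11307 tested symbols were found.

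The members and gene lists were chosen with earlier results of these data known. The rule for named genes took the Nodal and SMAD lists, the 12 largest rises and falls with non-overlapping groups and a mean of at least 5 TPM, up to 4 called members of each list (or 2 with the smallest p), and 6 rises and falls against the other knockouts. Other genes named were chosen after their values were seen. Alternatives were another pseudocount, no filter, quantile and median-of-ratios scaling, library weights, a replicate block, other sets of libraries, a 2-fold minimum and leaving out each library. Results for 2 genes of the lists are not reported here.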

Additional observations from a re-analysis of the deposited data

How the results depend on the processing

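Of 73 named genes called against control, 26 passed the threshold in every alternative other than the 2-fold minimum, and none of the 73 changed sign. Which direction held more calls did change: 115 higher and 140 lower against control became 224 and 200 with no filter and 116 and 89 with median-of-ratios scaling, and 402 and 364 against the other knockouts became 212 and 245 with a pseudocount of 0.1, 1406 and 1560 with batch 9 libraries only and 1360 and 1550 with the compared libraries only, and fewer higher than lower calls were also made with any 1 Smad2 knockout library left out (202 and 226, 160 and 205, and 182 and 211). The 255 genes called against control became 424 with no filter on low values, 2790 with library weights, 1467 with batch 9 libraries only, 1515 with the 6 compared libraries only and 118 with at least a 2-fold change. Leaving out 1 library gave 128 to 205 genes, lowest without control replicate 3. The 766 genes called against the other batch 9 knockouts became 457 with a pseudocount of 0.1, 3173 with library weights, 2966 with batch 9 libraries only, 2910 with the 15 compared libraries and 356 with at least a 2-fold change, and 365 to 428 with 1 Smad2 knockout library left out. The library weights did not reach their convergence tolerance. The cause of these differences was not tested, except that fewer libraries enter when 1 is left out and that the 2-fold minimum can only remove genes. With the replicate number as a block, 305 and 892 genes were called. The numbers were not taken to pair the samples: deviations of same-numbered knockout and control libraries correlated at 0.035, 0.069 and 0.118, although each library correlated best with its own number. Among named genes the block ended the call of Spink1 (adjusted p = 0.0564), brought in Fosl1 (0.043) and changed no other call. Depth is not known from TPM, so how far counting error limits genes of a few TPM was not tested.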
